A study of Mus musculus with 107 samples.

Results

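Of the 27179 genes counted in every library, 9 that serve glutamate, GABA and glycine handling in astrocytes were followed here. They were taken by symbol through their Entrez identifiers, and all 9 were found. The list was chosen with earlier results of these data known. RNA bound to HA-tagged ribosomes (RiboTag RNA-Seq) was measured in 23 groups of 4 to 9 libraries. RiboTag attaches an HA tag to the ribosomal protein Rpl22 after Cre recombination, so that pulling down HA recovers RNA being translated in the cells that carry the tag. Cultured and grafted cells all came from 1 line of C57BL/6 mouse embryonic stem cells (ESC), made from Rpl22tm1.1 Psam RiboTag mice crossed with SOX2-cre mice, so every one of these cells carries the tag and 1 line stands for them all. Neural progenitor cells (NPC) were induced from the ESC and kept in EGF and FGF at 100 ng/ml. Undifferentiated cultures were ESC, then NPC P5, NPC P15 and NPC P30, a single derivation at 3 passages, with 4 libraries each. The other derivations, both at passage 15, gave NPC P15 D2 (n = 6) and NPC P15 D3 (n = 4). NPC were differentiated for 4 days in EGF and FGF lowered to 1 ng/ml (SPONT), with CNTF or IGF-1 at 100 ng/ml, with 1% FBS, 5% FBS, 10% FBS or 20% FBS (fetal bovine serum by volume), or with CNTF and 5% FBS (n = 4 each). NPC were also passed through a grafting pipette in medium (NPC media), in a carrier hydrogel named DCH (NPC DCH), or in DCH and held there for 4 h (NPC DCH 4 h, n = 5 each). Grafts were NPC placed in the cord of adult mice. They lay in uninjured cord (Graft uninjured), in a crush spinal cord injury (SCI) made 2 days earlier (Graft SCI 14 d and Graft SCI 5 d), or in a double crush (Graft dSCI), with 5 libraries each. Graft SCI 5 d was recovered at 5 days and the other 3 graft groups at 14 days. The labels do not settle whether these days run from the injury or from grafting. Host astrocytes came from other mice, in which a GFAP-Cre line tags astrocytes, in healthy cord (Host healthy, n = 9) or 14 days after the same crush (Host SCI, n = 5). Because the tagged RNA was pulled from whole pieces of cord, fewer cells of a type and less RNA per cell cannot be told apart in grafts and hosts.

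Libraries summed to 30473157 to 147764968 counts in 96 libraries in which both mates of a read pair were counted. The other 11, those of NPC P15 D2 and Graft SCI 5 d, held single reads and 12286240 to 18085106 counts, so read type and group cannot be told apart in them. Astrocyte markers (Gfap, Aqp4, Aldh1l1, S100b, Gja1 and Sox9) summed to 24815 to 31736 CPM (counts scaled to a library total of 1000000) in healthy hosts and 24658 to 36546 in hosts after SCI. They summed to 470.2 to 503 CPM in NPC P15, against 7795 to 11511 in SPONT. In grafts they summed to 7089 to 25419.9 CPM in Graft SCI 5 d, 9324 to 21567 in Graft SCI 14 d, 9169 to 16632 in Graft uninjured and 6093 to 11838 in Graft dSCI. Grafts held markers of other cells besides. Neuron markers summed to 1359.9 to 6849 CPM in Graft uninjured and 246 to 572 in Graft SCI 14 d. The 6 microglia and macrophage markers summed to 0.163 to 2.08 CPM in NPC DCH. In grafts they summed to 114 to 2150 CPM in Graft SCI 5 d and 166 to 599 in Graft SCI 14 d. The sums were 111 to 570 in Graft uninjured and 399 to 1787 in Graft dSCI.

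Astrocytes end transmission by taking up what neurons release. Slc1a3 (GLAST) and Slc1a2 (GLT1) carry glutamate into the cell, Glul (glutamine synthetase) joins it to ammonia, and Slc38a3 passes the glutamine out toward neurons, which turn it into glutamate and GABA again. Slc6a11 (GAT3) takes up GABA and Slc6a9 (GLYT1) takes up glycine. Gldc, the decarboxylase of the mitochondrial glycine cleavage system, breaks glycine down, and Slc7a10 (Asc1) exchanges glycine, serine and other small neutral amino acids across the membrane. Slc7a11 (xCT) releases glutamate in exchange for cystine, the precursor that cells need for glutathione. The spinal cord uses glycine as well as GABA for inhibition, so the glycine genes have a place there that they lack in much of the forebrain.

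On GRCm38, the genes lie at chr15:8634124-8710807 (Slc1a3, Entrez 20512), chr2:102658239-102790784 (Slc1a2, Entrez 20511), chr1:153899929-153909723 (Glul, Entrez 14645), chr9:107651154-107668968 (Slc38a3, Entrez 76257), chr6:114131241-114249886 (Slc6a11, Entrez 243616), chr4:117835258-117869305 (Slc6a9, Entrez 14664), chr19:30098441-30175441 (Gldc, Entrez 104174), chr7:35186095-35201116 (Slc7a10, Entrez 53896) and chr3:50364936-50499087 (Slc7a11, Entrez 26570). RefSeq windows of 250 bases before to 50 after a start were matched for 8 of the 9 members, with 10 windows in all. Only the 250 bases before the start of each window were searched, on both strands, for 6 short motifs. The Slc7a11 window stood out for the core of the amino acid response element, TGATGNAA, the sequence through which the stress factor ATF4 acts. It held 2 matches, beginning at 66 and 47 bases before the start, which do not overlap. Of 32851 windows of the same length, 1134 (3.45%) held at least 1 match and 13 (0.0396%) held 2 or more. No window of the other 7 members had one. A match is a description of letters, and binding was not measured. The sequence of Slc7a11 is shown for these 2 matches. Its 250 bases before the start lie at chr3:50443614-50443863 of GRCm38.p6 on the minus strand, within the annotated span of the gene, and are given 5′ to 3′ with the matches in capitals.
Slc7a11: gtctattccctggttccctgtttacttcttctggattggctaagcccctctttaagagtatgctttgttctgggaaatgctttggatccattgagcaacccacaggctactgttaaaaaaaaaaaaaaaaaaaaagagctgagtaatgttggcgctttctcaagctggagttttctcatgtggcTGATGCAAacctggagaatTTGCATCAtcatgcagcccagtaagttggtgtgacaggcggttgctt
The other motifs were TGACNNNGC (antioxidant response element, in 10.2% of all windows), TTCNNNGAA (STAT site, 7.02%), the NFI site (1.22%), TATAAA (12.4%) and CCAAT (33.8%). The STAT letters were in the windows of Slc7a11 and Slc1a3, and the antioxidant letters in those of Slc6a11 and in 2 of the 3 of Slc6a9. The NFI letters were in none of the 10.

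Levels of each gene are given as mean CPM ± SD over the libraries of a group, and genes are set beside each other only per length. The glutamate uptake genes differed in their order of groups. Slc1a3 was highest in NPC P15 D2, at 1747 ± 105 CPM, with NPC P30 at 1192 ± 64.3 and NPC DCH at 1160.0 ± 41.5. The other NPC groups grown as plain cultures were lower, at 748 ± 119 in NPC P15 D3, 676 ± 21.2 in NPC P15 and 552 ± 9.45 in NPC P5. It stood at 678 ± 71.7 in healthy hosts, 283 ± 104 in hosts after SCI and 27.0 ± 1.51 in ESC, the lowest group. Differentiated cultures ran from 347 ± 50.3 (IGF-1) to 958 ± 38.5 (CNTF + 5% FBS) and grafts from 436 ± 232 (Graft dSCI) to 702 ± 251 (Graft SCI 14 d). Slc1a2 was highest in healthy hosts, at 10272 ± 701 CPM, which was 1468 times the 7.00 ± 1.39 of ESC. Next came hosts after SCI (3280.3 ± 1342), Graft uninjured (1472 ± 491), Graft dSCI (1042 ± 329) and Graft SCI 14 d (1029 ± 199.7). The best of the cultures, 1% FBS, reached 401 ± 78.5, and NPC of all kinds held 20.2 to 105. With groups put in order of the mean, 9 of the 22 pairs of neighbours did not overlap in range for Slc1a2, among them healthy hosts and hosts after SCI, and 5 of 22 for Slc1a3. Each of the other pairs overlapped. Such counts were made for the members only and not over all genes.

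Glul, for glutamine synthesis, was the steadiest of the 9, with a factor of 15.6 between its highest and lowest groups. Healthy hosts held 4097 ± 321 CPM, Graft uninjured 1411 ± 759.5 and hosts after SCI 1348 ± 263. Graft dSCI held 883 ± 408 and the remaining 19 groups lay between 263 ± 17.0 (NPC P5) and 683 ± 40.6 (NPC P30). Of its 22 neighbours in order, 20 overlapped. The glutamine carrier Slc38a3 was highest before grafting, at 501 ± 24.8 CPM in NPC DCH 4 h and 468 ± 22.7 in NPC DCH, and was 286 ± 62.3 in healthy hosts. All 4 graft groups had means between 96.9 and 116, with no gap between neighbours in the order, and ESC were lowest at 13.3 ± 4.01.

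The GABA transporter Slc6a11 spanned the widest range, a factor of 1939. Healthy hosts held 3103 ± 465 CPM and cultures in 20% FBS 1.60 ± 0.348. SPONT (692 ± 189) was next below the healthy hosts, above Host SCI (479 ± 261), Graft uninjured (370.4 ± 179), 1% FBS (335 ± 62.4) and IGF-1 (334 ± 28.6), whose neighbours in this order overlapped. The glycine transporter Slc6a9 followed a like order, from 1107 ± 99.2 CPM in healthy hosts through 491 ± 45.3 in 1% FBS and 408 ± 129.5 in hosts after SCI to 33.7 ± 1.61 in 20% FBS and 24.3 ± 2.97 in ESC. Gldc, for glycine breakdown, had another order. NPC P15 D2 held 156 ± 13.9 CPM, NPC P30 115 ± 10.4 and ESC 111 ± 4.42, but it was 17.8 ± 2.02 in healthy hosts and 7.97 ± 9.05 in Graft dSCI. Slc7a10 lay below 2 CPM in every culture group, at 0.380 CPM (ESC) to 1.97 CPM (NPC P5). Healthy hosts held 483 ± 62.3, hosts after SCI 88.3 ± 48.4 and Graft uninjured 53.1 ± 25.0, and the other 3 graft groups 5.01 to 12.5.

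Slc7a11 had no such order by source. Its highest means were 109 ± 72.3 CPM in Graft dSCI and 91.6 ± 15.9 in 1% FBS, followed by SPONT (65.3 ± 7.13), NPC P30 (60.9 ± 5.72) and IGF-1 (58.6 ± 3.36). Healthy hosts held 51.2 ± 13.3, 20% FBS 2.27 ± 0.433 and ESC 0.453 ± 0.219. Over the 9 genes, 43 of 198 pairs of neighbouring groups did not overlap. The same count was not made over all genes, so whether this separation is usual cannot be said.

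**Figure D1:**
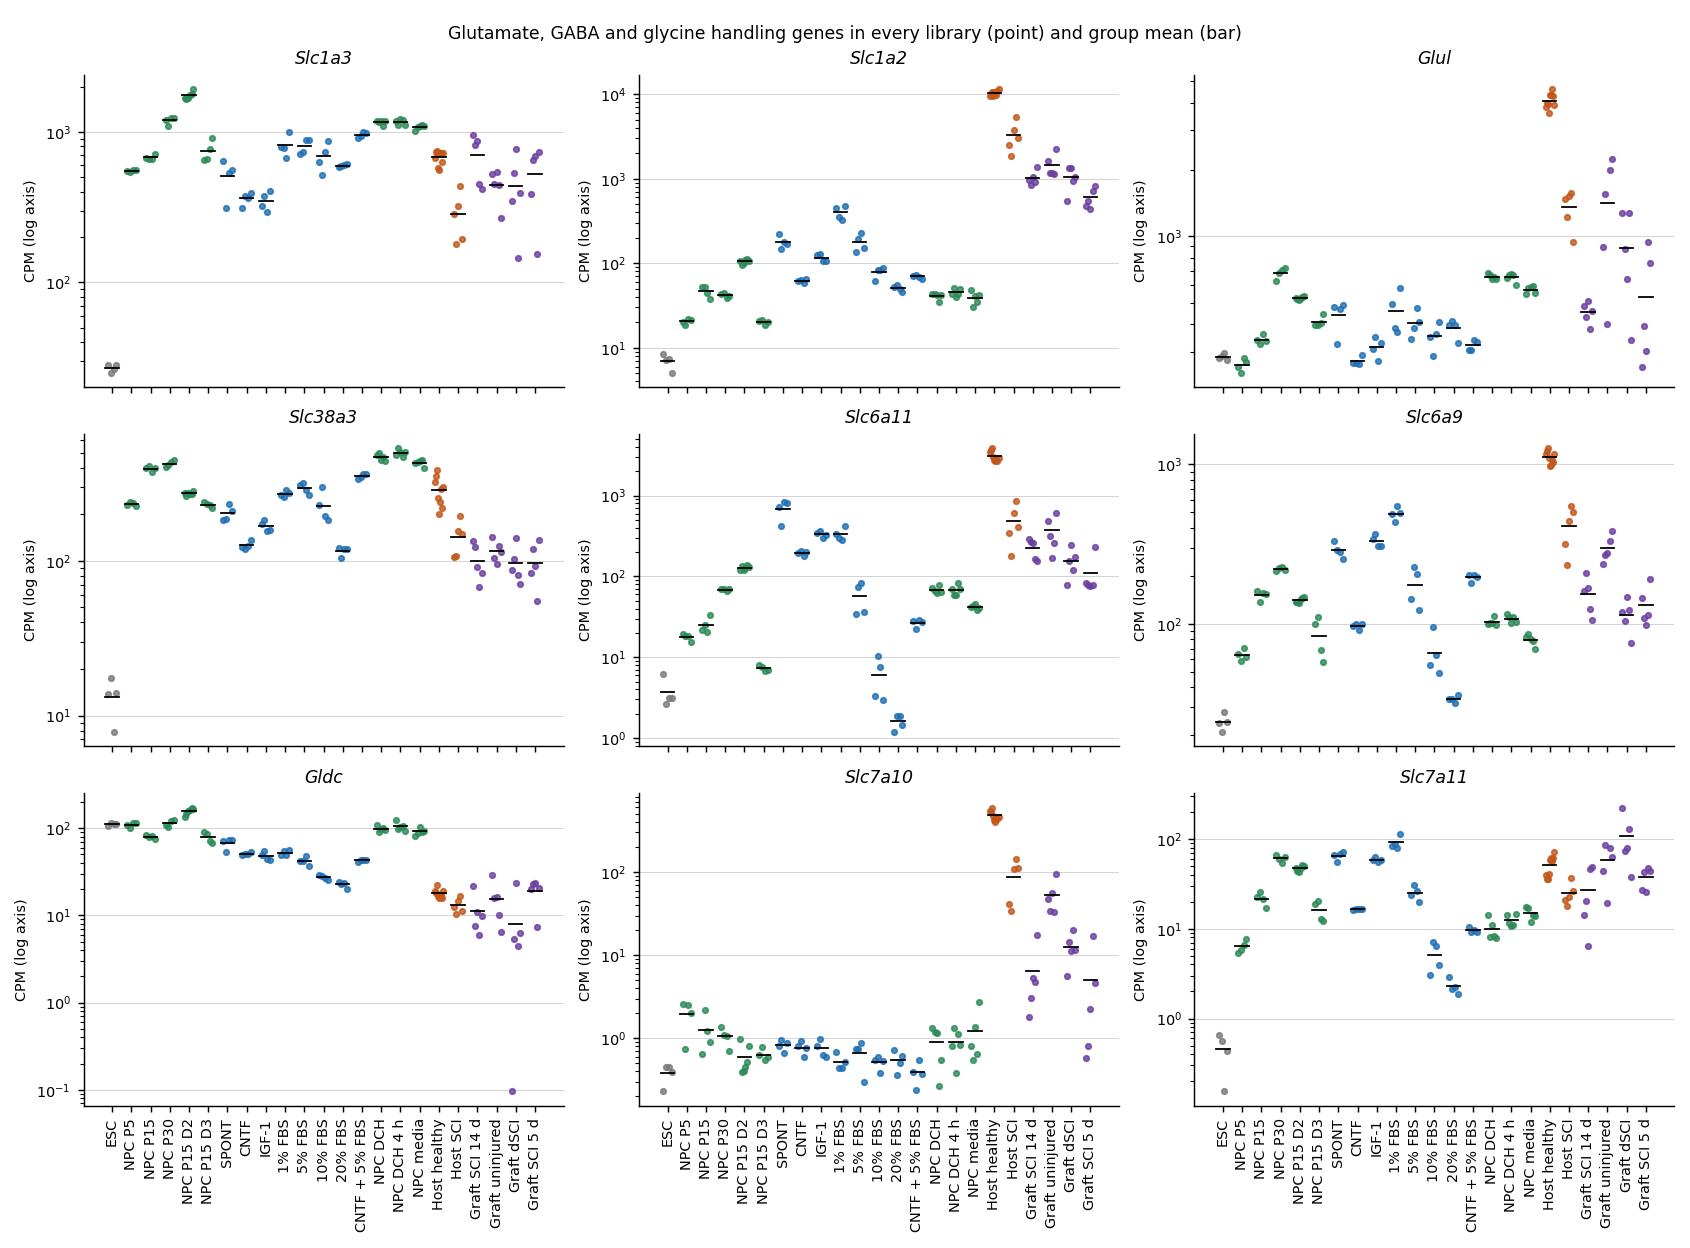
CPM (log axis) of the 9 genes in every library (points) with the mean of each group (bars), for the 23 groups from ESC to hosts. Slc1a2, Slc6a11 and Slc7a10 have their highest bar in Host healthy, while Slc1a3 and Gldc have theirs in NPC P15 D2.

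Slc1a3 and Slc1a2 were then set against each other per length (FPKM, which is CPM per kilobase of exon), as the log2 ratio of Slc1a3 to Slc1a2 in each library with 0.1 added to both. In every culture library Slc1a3 exceeded Slc1a2. The mean log2 ratio was 4.44 in NPC P15 (79.2 against 3.59 FPKM) and 2.09 in SPONT, with ranges of 4.24 to 4.79 and 1.69 to 2.32 that did not overlap. The difference of -2.35 had an exact two-sided permutation p of 0.0286, the smallest that 4 against 4 libraries allow, and 0.0571 after adjustment over the 8 ratio comparisons, which misses 0.05. The ratio was lowest among cultures in 1% FBS, at 1.64, and 4.15 in 20% FBS. Every host library had more Slc1a2 than Slc1a3. In healthy hosts the ratio was -3.30 ± 0.17 (SD, n = 9), with 782 FPKM of Slc1a2 against 79.4 of Slc1a3.

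Grafts lay between these ends. All 5 libraries of Graft uninjured and all 5 of Graft dSCI had more Slc1a2, at mean log2 ratios of -1.09 and -0.76. More Slc1a3 was seen in 3 of 5 of Graft SCI 14 d and 4 of 5 of Graft SCI 5 d, at means of 0.0051 and 0.27. Which gene was higher in grafts depended on the exon lengths used, 8537 bases for Slc1a3 and 13133 for Slc1a2. The study's own mean FPKM for NPC grafted into SCI were higher for Slc1a3 than for Slc1a2. Apart from the 0.1 added, the lengths shift the ratio alike in all libraries. Graft uninjured exceeded healthy hosts by 2.21 (exact two-sided permutation test, adjusted p = 0.00799) and Graft SCI 14 d exceeded hosts after SCI by 2.90 (exact adjusted p = 0.0213), in both cases with no overlap. Hosts after SCI had a ratio 0.41 above that of healthy hosts (exact adjusted p = 0.0213), with overlapping ranges. That call was lost without Host SCI replicate 1, 2 or 3, at differences of 0.31, 0.37 and 0.41 and an exact adjusted p of 0.0571 each time. The difference of 1.10 between Graft SCI 14 d and Graft uninjured did not pass (exact adjusted p = 0.102). It was 1.37 with an exact adjusted p of 0.0317 without Graft SCI 14 d replicate 5.

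**Figure D2:**
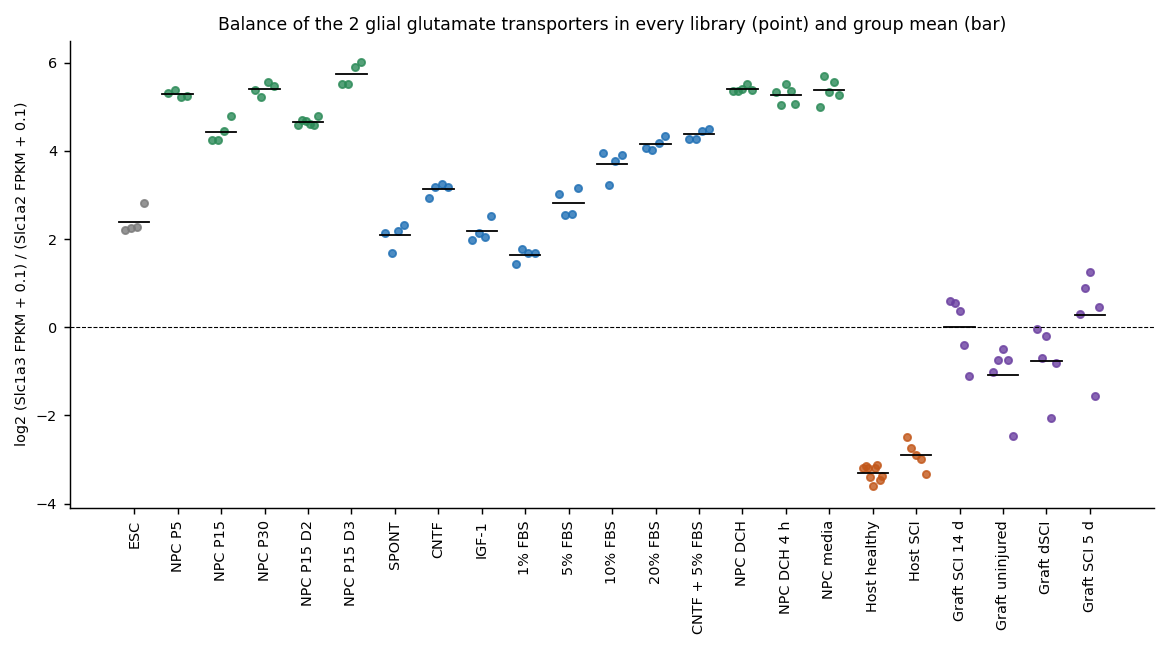
Log2 ratio of Slc1a3 to Slc1a2 in FPKM (0.1 added to each) in every library (points) with group means (bars). The dashed line marks equal levels at the exon lengths used here. Cultures lie above the line, hosts below it at -3.30 (healthy) and -2.89 (SCI), and grafts spread around it.

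Whether NPC had gained these genes over the ESC they came from was asked for each passage and derivation with edgeR quasi-likelihood tests over all genes, called at an adjusted p below 0.01. The 5 comparisons share the ESC libraries. Called higher and lower were 7 and 1 of the 9 genes at passage 5, 7 and 1 at passage 15, 7 and 0 at passage 30, 8 and 0 (of 8 tested) for NPC P15 D2, and 6 and 1 for NPC P15 D3. Over all genes tested, in the same order, 32.5%, 32.2%, 33.9%, 37.7% and 32.9% were called higher and 34.6%, 34.9%, 34%, 42.9% and 36.6% lower. The median log2FC of the members was 2.65 in NPC P15, against -0.10 over all genes tested. Slc1a3 was 28.1, 25.1, 26.4 and 28.3 CPM in the ESC libraries and 672, 663, 663 and 707 in NPC P15. These groups lay far apart, at a log2FC of 4.56 ± 0.06 (SE, edgeR adjusted p = 2.3e-13). Slc38a3 rose by 4.81 ± 0.20 and Slc7a11 by 5.49 ± 0.39, from a level of 0.154 to 0.658 CPM in ESC. Gldc was the member that fell in NPC P15 (-0.58 ± 0.06, edgeR adjusted p = 3.9e-06) and in NPC P15 D3 (-0.60 ± 0.09), while Glul was the one that fell in NPC P5 (-0.25 ± 0.05, with overlapping ranges). Slc6a11 did not pass in NPC P15 D3 (0.87, edgeR adjusted p = 0.014). The calls of Slc7a10 in NPC P5 and of Glul in NPC P15 were lost in 6 of 8 fits that left out 1 library. Of the pathway lists, receptors for these transmitters had 7 higher and 0 lower of 11 tested in NPC P15, and the glycine and serine enzymes 6 higher and 3 lower of 9. Cystine and glutathione genes had 2 higher and 6 lower of 8.

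From passage 5 to passage 30, 7 of the 9 genes rose and none fell. In this comparison 17.5% of genes tested were higher and 18.1% lower. Slc7a11 moved most. Its libraries held 5.42, 5.78, 6.51 and 7.70 CPM at passage 5 and 67.2, 59.6, 53.7 and 63.1 at passage 30, which is a log2FC of 3.24 ± 0.12 (SE, edgeR adjusted p = 3e-14), or 9.58 times the mean. NPC P15 lay between them at 17.2 to 25.6 CPM. Slc6a11 rose by 1.92 ± 0.09, Slc6a9 by 1.76 ± 0.06, Glul by 1.36 ± 0.05, Slc1a3 by 1.09 ± 0.04, Slc1a2 by 1.01 ± 0.09 and Slc38a3 by 0.85 ± 0.04. Gldc (0.05) and Slc7a10 (-0.92) did not pass. The list of targets of ATF4 and of the antioxidant factor NRF2 had 6 higher and 1 lower of 8, with a median log2FC of 1.23. Among them, Chac1, which degrades glutathione, rose by 3.89, the pseudokinase Trib3 by 3.16 and the quinone reductase Nqo1 by 1.44. Slc3a2, the heavy chain with which Slc7a11 forms its transporter, rose by 1.20. It pairs as well with Slc7a5, a carrier of large neutral amino acids, which rose by 1.43.

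After 4 days of mitogen withdrawal (SPONT) the GABA transporter changed most of the 9. Slc6a11 was 22, 25.1, 20.5 and 33.1 CPM in NPC P15 and 718, 417, 827 and 807 in SPONT. The groups were far apart, with a log2FC of 4.91 ± 0.23 (SE, edgeR adjusted p = 1.6e-08). In all, 5 members were higher, 1 was lower and 3 did not pass, where 29.8% of genes tested were higher and 27.4% lower. Slc1a2 was 52.9, 52.7, 45.1 and 38.0 CPM in NPC P15 and 223, 148, 178 and 171 in SPONT, a log2FC of 2.06 ± 0.14 with no overlap. Slc7a11 rose by 1.72 ± 0.13, Slc6a9 by 1.05 ± 0.09 and Glul by 0.50 ± 0.11. Glul was below NPC P30 and NPC P15 D2 when these served as the reference, at log2FC of -0.47 and -0.20. Slc7a11 did not pass against NPC P30 (0.26), nor Glul against NPC P15 D3 (0.16). Slc38a3 fell, at -0.83 ± 0.08, and did not pass against NPC P5 (-0.058) or NPC P15 D3 (-0.12). Which NPC group served the study as this reference is not stated, and NPC P15 was chosen here. Slc1a3 held 644, 312, 532 and 559 CPM in SPONT, below all NPC P15 libraries but with a low second library, and did not pass (-0.28 ± 0.16, edgeR adjusted p = 0.15). The neuronal-type glutamate transporter Slc1a1 rose by 6.45, the GABA transaminase Abat by 2.64 and glutamate dehydrogenase Glud1 by 2.42. Receptors had 4 higher and 4 lower of 12 tested. Of these the GABA-B subunit Gabbr2 rose by 9.44 and the metabotropic glutamate receptor Grm5 changed by -6.62. ATF4 and NRF2 targets had 2 higher and 4 lower of 8, with Trib3 at -4.29 and Asns (asparagine synthetase) at -2.31. In that comparison all 6 astrocyte markers were higher, and 6 of 8 oligodendrocyte-lineage markers, whose sum was 332 to 385 CPM in NPC P15 and 2624 to 5169 in SPONT. Their part in the result was not tested.

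CNTF, which the study added for astrocyte differentiation, and IGF-1, added for oligodendroglia, were compared with SPONT, whose libraries the comparisons with 1% FBS share. With CNTF, 7 of 9 members were lower and none higher, where 10.8% of genes tested were higher and 9.15% lower. Slc7a11 was 66.7, 54.9, 68.4 and 71.1 CPM in SPONT and 16.2, 16.6, 16.8 and 16.7 with CNTF. Every CNTF library was below every SPONT library, at a log2FC of -1.95 ± 0.08 (SE, edgeR adjusted p = 9.1e-08). Slc6a11 fell from 692 to 195 CPM (-1.80 ± 0.17), Slc6a9 from 289 to 96.8 (-1.56 ± 0.08) and Slc1a2 from 180.1 to 62.0 (-1.52 ± 0.11), with no overlap. Glul and Slc38a3 each fell by 0.67 on the log2 scale. Gldc was called at the edge (-0.39 ± 0.09, edgeR adjusted p = 0.0099) and lost in 7 of the 8 fits that left out 1 library. Astrocyte markers summed to 22591 to 23595 CPM with CNTF, above the 7795 to 11511 of SPONT. The markers within that sum did not move alike. The study reports higher average Gfap and Aqp4 with CNTF than in SPONT, but lower Gja1 and S100b. Oligodendrocyte-lineage markers were lower with CNTF, at 1791 to 1919.5 against 2624 to 5169 CPM, with no overlap. The part of these markers was not tested. With IGF-1, Slc6a11 (-1.0 ± 0.17, edgeR adjusted p = 0.0059) and Slc1a2 (-0.57 ± 0.11, edgeR adjusted p = 0.0072) were lower and the other 7 did not pass, where 2.8% of genes tested were higher and 3.75% lower. Leaving out SPONT replicate 2, the low one, gave 5 called members, and leaving out any other library 0 or 1.

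Serum was compared next, over its 4 concentrations. In 1% FBS against SPONT, Slc1a2 was 223, 148, 178 and 171 CPM in SPONT and 455, 349, 321 and 482 in 1% FBS, which do not overlap (log2FC 1.17 ± 0.14, edgeR adjusted p = 0.00035). Slc6a9 (0.78 ± 0.10) and Slc38a3 (0.43 ± 0.09) were also higher and Slc6a11 lower (-1.03 ± 0.19), so 4 of 9 were called where 5.63% of genes tested were higher and 3.15% lower. Leaving out single libraries, the call of Slc38a3 was lost in 7 of 8 fits and that of Slc6a11 in 5 of 8, and the count fell to 2 without SPONT replicate 4 or without 1% FBS replicate 1, 2 or 3. From 1% to 5% FBS, 5 members fell and none rose, where 17.4% of genes tested were higher and 13.7% lower. From 5% to 20% FBS, 7 fell and none rose, against 12.9% of genes higher and 13.7% lower. Slc6a11 was 339, 295, 283 and 421 CPM in 1% FBS, 34.5, 74.6, 83.7 and 36.0 in 5%, 3.33, 10.3, 7.58 and 2.95 in 10% and 1.18, 1.90, 1.88 and 1.44 in 20%. Each step down was free of overlap, and the fall was -2.56 ± 0.28 (edgeR adjusted p = 6.2e-05) and then -5.19 ± 0.34 on the log2 scale (edgeR adjusted p = 3.7e-06). Slc7a11 was 83.8, 87.2, 80.2 and 115 CPM in 1% FBS, 24.1, 30.5, 26.7 and 20.0 in 5% and 2.88, 2.15, 2.22 and 1.85 in 20%, with log2FC of -1.86 ± 0.14 and -3.52 ± 0.17.

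Slc6a9 changed by -1.50 ± 0.18 from 1% to 5% and by -2.42 ± 0.18 from 5% to 20%, and Slc1a2 by -1.19 ± 0.17 and -1.83 ± 0.15. Slc38a3 (-1.38 ± 0.08) and Slc1a3 (-0.46 ± 0.08) fell in the second step and did not pass in the first, a difference between steps that was not tested. Gldc fell in both (-0.31 ± 0.08, lost in 7 of 8 fits without 1 library, and -0.94 ± 0.09). Glul did not pass in either (-0.19 and -0.11). Other genes of the pathway that fell in both steps included Gabbr2 (-2.28 and -5.24), Slc1a1 (-1.87 and -1.91) and Phgdh, which opens serine synthesis (-0.89 and -1.05). In the second step the glycine and serine enzymes had 0 higher and 6 lower of 9. Astrocyte markers moved with serum too and summed to 17348 to 23236 CPM in 1% FBS and 3952 to 4581 in 20%. Oligodendrocyte-lineage markers summed to 2472 to 3732 CPM in 1% FBS and 460.0 to 546 in 20%, with no overlap. Fibroblast and pericyte markers went the other way, with 22.3 to 123 CPM in 1% FBS and 454 to 546 in 20%. Their part in these changes was not tested.

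**Figure D3:**
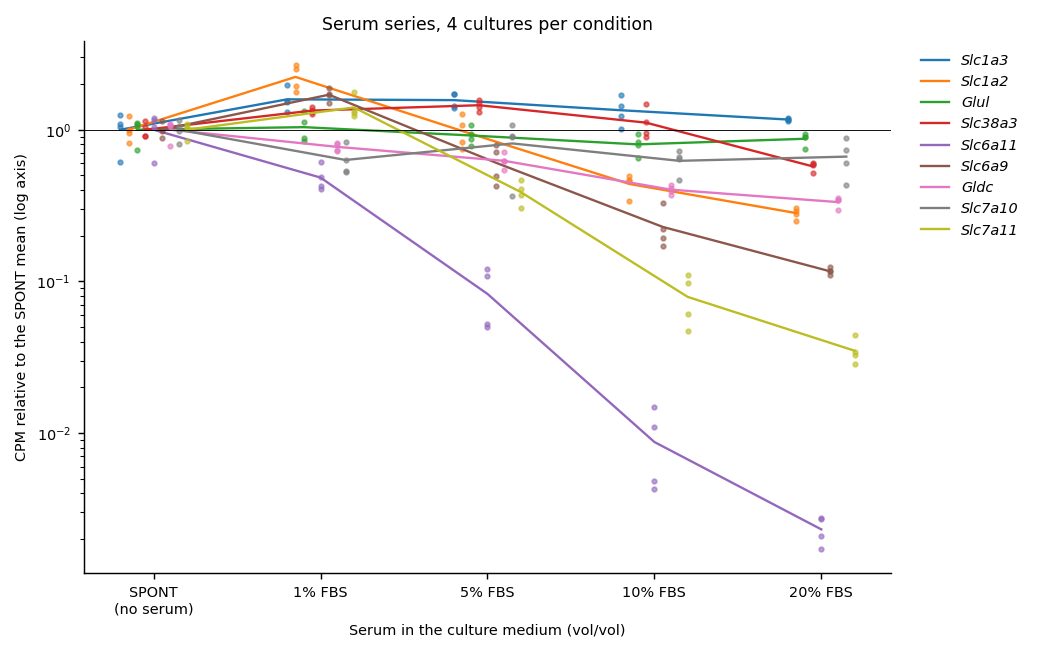
CPM of each gene relative to its mean in SPONT (log axis) against serum from none to 20% (vol/vol), with 4 cultures per condition as points and lines through the means. Slc6a11 and Slc7a11 fall furthest, from 692 and 65.3 CPM in SPONT to 1.60 and 2.27 in 20% FBS, and Glul stays near 1.

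CNTF added to 5% FBS was compared with both of its parts. Against 5% FBS, Slc7a11 (-1.46 ± 0.12), Slc1a2 (-1.40 ± 0.14), Slc6a11 (-1.18 ± 0.26) and Glul (-0.40 ± 0.08) were lower and no member was higher, where 11.3% of genes tested were higher and 12% lower. That count was 2 when any 1 of the CNTF + 5% FBS libraries was left out. Against CNTF alone 4 members were higher and 4 lower, where 36.1% of genes tested were higher and 36.8% lower. Slc1a3 was 314, 374, 365 and 391 CPM with CNTF and 917, 935, 998 and 983 with both, a log2FC of 1.29 ± 0.05 with no overlap. Slc38a3 (1.37 ± 0.04) and Slc6a9 (0.90 ± 0.04) were higher and Slc6a11 (-2.99 ± 0.06) and Slc7a11 (-0.89 ± 0.07) lower. Slc7a10 was called lower at levels under 1 CPM, from 0.771 to 0.389. Whether CNTF acted differently with serum than without was tested as an interaction, in which 10.3% of genes tested were higher and 12.6% lower. For Slc6a9 the CNTF effect was -1.56 without serum and 0.09 with it, a difference of 1.63 ± 0.20 (SE, edgeR adjusted p = 1.1e-05). Slc38a3 differed by 0.84 ± 0.11 (edgeR adjusted p = 2.3e-05). The other 7 members did not pass, among them Slc7a11 (0.48, edgeR adjusted p = 0.016). Without SPONT replicate 2, 6 members passed.

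The carrier gel used for grafting was compared with medium. Slc6a11 was 42.2, 43.0, 45.1, 38.5 and 41.0 CPM in NPC media and 71.8, 65.7, 62.8, 78.2 and 63.5 in NPC DCH, which did not overlap (log2FC 0.71 ± 0.09, edgeR adjusted p = 2.1e-05). Slc6a9 (0.38 ± 0.08) and Glul (0.20 ± 0.04) were higher too, so 3 of 9 were called where 1.91% of genes tested were higher and 2.41% lower. Holding the cells in DCH for 4 h called none of the 9 by edgeR or by DESeq2, in a comparison where 0.0436% of genes tested were higher and 0.276% lower, and 1 member, Slc38a3 (log2FC 0.10), had an unadjusted p under 0.05.

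Grafted cells were compared with NPC DCH, the cells as they left the pipette. The study does not name the NPC group that was its reference before grafting, and NPC DCH was chosen here. Set against its host values, the study's FPKM of Slc6a11 before grafting lies nearer to NPC P15 D3 than to NPC DCH. Mean Slc6a11 was 7.36 CPM in NPC P15 D3 and 68.4 in NPC DCH. Slc1a3, Glul and Slc38a3 were lower in NPC P15 D3 as well. NPC P15 D3 was not tried as a reference for grafts. The 4 comparisons share the NPC DCH libraries, and Graft SCI 5 d differed from them in read type as well. Slc1a2 was higher in all 4 and gained the most CPM of any member. It was 43.2, 42.7, 41.8, 35.1 and 42.2 CPM in NPC DCH, 478, 544, 443, 707 and 830.4 in Graft SCI 5 d, 973, 853, 1040.2, 915 and 1364 in Graft SCI 14 d, 1626, 1163, 1169, 1131 and 2269.7 in Graft uninjured and 549, 1322, 1357, 930.3 and 1049.8 in Graft dSCI. Every graft library exceeded every NPC DCH library by more than 10 times. Log2FC were 3.97 ± 0.20, 5.01 ± 0.21, 5.20 ± 0.23 and 4.98 ± 0.28 in that order, with an edgeR adjusted p of 1.7e-08 in Graft SCI 5 d and 5.7e-09 in Graft uninjured. Members called higher and lower numbered 2 and 3 in Graft SCI 5 d, 5 and 2 in Graft SCI 14 d, 5 and 3 in Graft uninjured and 5 and 3 in Graft dSCI. Of all genes tested, 27.2%, 28.4%, 28.4% and 28.5% were higher and 26.7%, 23.3%, 25.3% and 23.4% lower.

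Slc7a11 was 14.2, 8.12, 11.1, 8.32 and 7.96 CPM in NPC DCH and 25.7 to 47.8 in Graft SCI 5 d, 6.44 to 49.0 in Graft SCI 14 d, 19.3 to 86.5 in Graft uninjured and 37.3 to 224 in Graft dSCI. It was called higher in all 4 (log2FC 2.01, 1.87, 2.59 and 3.67), although in Graft SCI 14 d the third library was below the NPC DCH range and the call was lost in 6 of 10 fits that left out 1 library. Slc7a10 was 1.34, 1.17, 1.17, 0.267 and 0.542 CPM in NPC DCH and 47.9, 33.8, 56.3, 33.2 and 94.3 in Graft uninjured, a log2FC of 5.91 ± 0.51 (SE, edgeR adjusted p = 7.7e-07). It rose by 4.11 ± 0.57 in Graft dSCI and 3.30 ± 0.76 in Graft SCI 14 d and did not pass in Graft SCI 5 d (2.63, edgeR adjusted p = 0.026). Slc6a11 rose in Graft SCI 14 d (2.04 ± 0.15), Graft uninjured (2.48 ± 0.30) and Graft dSCI (1.51 ± 0.29), as did Slc6a9 (0.90, 1.58 and 0.41, the last lost in 4 of 10 fits without 1 library). Neither passed in Graft SCI 5 d. Against NPC media in place of NPC DCH both passed there (1.47 for Slc6a11 and 0.83 for Slc6a9), as Slc6a11 did against NPC P15 (2.20), and Slc7a11 in Graft SCI 14 d did not (1.29). Against NPC P15, Slc7a11 (0.74) and Slc6a9 (0.33) in Graft SCI 14 d and Slc6a9 in Graft dSCI (-0.16) did not pass.

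Other members fell on grafting. Gldc was 109, 90.9, 98.6, 101 and 96.5 CPM in NPC DCH against 21.8, 7.65, 11.1, 5.95 and 9.83 in Graft SCI 14 d and 0.0957, 5.31, 23.6, 4.51 and 6.33 in Graft dSCI. No graft library reached the lowest NPC DCH library, and the log2FC were -2.31 ± 0.24, -2.82 ± 0.28, -2.65 ± 0.32 and -3.37 ± 0.80 for Graft SCI 5 d, Graft SCI 14 d, Graft uninjured and Graft dSCI. Slc38a3 fell in all 4, at -2.19, -1.91, -1.98 and -2.0. Slc1a3 fell in Graft uninjured (-1.37 ± 0.15, edgeR adjusted p = 6.6e-06), Graft dSCI (-1.12 ± 0.33) and Graft SCI 5 d (-1.08 ± 0.31), the last 2 calls being lost in 7 of 10 fits without 1 library. It did not pass in Graft SCI 14 d (-0.42, edgeR adjusted p = 0.049). Neither call of Slc1a3 in Graft dSCI or Graft SCI 5 d held against NPC media (-1.004 and -0.97) or NPC P15 (-0.34 and -0.31). Glul passed in none of the 4 against NPC DCH. Its log2FC of 1.15 ± 0.37 in Graft uninjured had an edgeR adjusted p of 0.015. It passed there with DESeq2 size factors, and against NPC media in Graft uninjured (1.36) and Graft dSCI (0.86). Against NPC P15 it passed in Graft uninjured (2.10), Graft dSCI (1.60) and Graft SCI 14 d (0.76). Of the pathway lists, all 6 other GABA and glycine transporters were higher in Graft SCI 14 d, Graft uninjured and Graft dSCI, among them the vesicular carrier Slc32a1 (8.20 in Graft uninjured), a gene of inhibitory neurons. The glycine and serine enzymes had 1 higher and 7 lower of 9 in the same 3 groups, with the mitochondrial Shmt2 at -2.30, -2.69 and -2.75. Glutamate and GABA enzymes had 3 higher and 4 lower of 11 in Graft SCI 14 d, and 6 higher and 3 lower in Graft uninjured. Receptors had 7 higher and 3 lower of 13 in Graft SCI 14 d, and 10 higher and 2 lower in Graft uninjured. Cystine and glutathione genes had 4 higher and 3 lower of 8 in Graft SCI 14 d, and glutamine transporters 2 higher and 2 lower of 6. Slc7a8, which like Slc7a11 pairs with Slc3a2 but carries neutral amino acids, rose by 6.63 in Graft SCI 14 d. Fibroblast and pericyte markers stood at 12.7 to 18.7 CPM in NPC DCH and 944 to 3359 in Graft SCI 14 d, 1642 to 3858 in Graft uninjured, 6545 to 21866 in Graft dSCI and 5319 to 17260.5 in Graft SCI 5 d, and neuron markers at 26.2 to 40.3 in NPC DCH. Astrocyte markers were at 407 to 458 CPM in NPC DCH, below every graft library. Their part in these results was not tested.

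**Figure D4:**
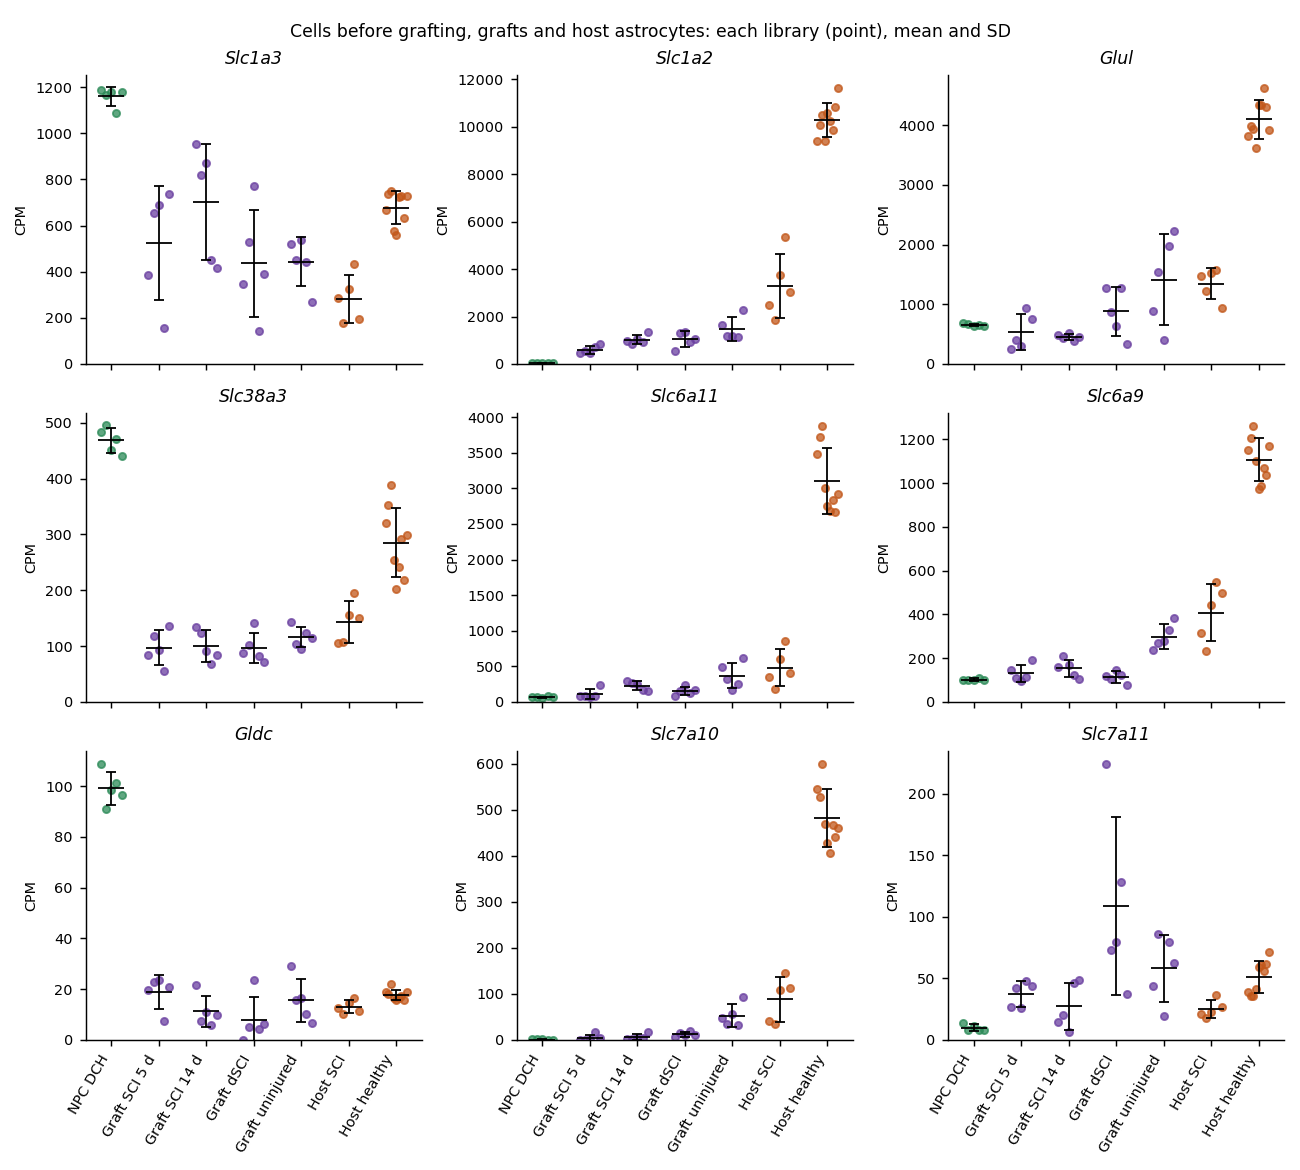
CPM (linear axes from 0) of the 9 genes in NPC DCH, the 4 graft groups and the 2 host groups, with each library as a point and the mean with its SD as a bar. Slc1a2 and Slc7a10 rise from NPC DCH through grafts to healthy hosts at 10272 and 483 CPM, while Gldc and Slc38a3 are highest in NPC DCH.

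Grafts were then compared with each other. Between Graft SCI 14 d and Graft SCI 5 d edgeR called no member, where 2.72% of genes tested were higher and 2.58% lower. Slc1a2 and Slc6a11 were the 2 members with an unadjusted p under 0.05, at log2FC of 0.98 ± 0.26 and 1.21 ± 0.31 (edgeR adjusted p = 0.026 and 0.025), and DESeq2 called both. These groups differ in read type too, which cannot be told apart from the day. Fibroblast and pericyte markers were lower at 14 days than at 5 days, with no overlap of their sums. Between injured and uninjured cord, Slc7a10 was 1.80, 3.04, 5.26, 4.73 and 17.4 CPM in Graft SCI 14 d, 5.60, 14.2, 11.2, 20.0 and 11.6 in Graft dSCI and 47.9, 33.8, 56.3, 33.2 and 94.3 in Graft uninjured. Both injured groups lay wholly below the uninjured one. Its log2FC were -2.66 ± 0.59 and -1.83 ± 0.39, each with an edgeR adjusted p of 0.0099, just inside the threshold. The first call was lost in 9 of 10 fits that left out 1 library and the second in all 10. Slc6a9 was 236, 270.0, 277, 330.3 and 383 CPM in Graft uninjured and 119, 104, 147, 122 and 75.5 in Graft dSCI, with no overlap (-1.18 ± 0.19, edgeR adjusted p = 0.0027). In Graft SCI 14 d it was 159, 209, 169, 125 and 106, also below all uninjured libraries, and did not pass (-0.71, edgeR adjusted p = 0.025). So 1 member was called lower in Graft SCI 14 d, where 2.09% of genes tested were higher and 2.55% lower, and 2 in Graft dSCI, where 2.55% of genes tested were higher and 1.64% lower. Glul (-1.38, edgeR adjusted p = 0.025) and Slc1a3 (0.92, edgeR adjusted p = 0.019) did not pass in Graft SCI 14 d. Between Graft dSCI and Graft SCI 14 d none of the 9 was called by edgeR, where 1.29% of genes tested were higher and 0.538% lower. DESeq2 called 1 member, Glul, and 1276 of all genes, against 289 by edgeR. Slc7a11 was at 1.83 ± 0.54 (edgeR adjusted p = 0.0503). It was 1 of 3 members with an unadjusted p under 0.05, beside Glul and Slc6a9. Neuron markers were lower in all libraries of Graft SCI 14 d (246 to 572 CPM) than in all of Graft uninjured (1359.9 to 6849). In Graft dSCI (271 to 1444) they overlapped with Graft uninjured. Receptors had 0 higher and 6 lower of 13 in Graft SCI 14 d. Graft uninjured replicate 5 had the highest neuron sum and the highest Slc7a10, Slc1a2, Glul, Slc6a11 and Slc6a9 of its group. That library had the lowest Slc1a3 and Gldc, while Slc38a3 and Slc7a11 were highest in other replicates. In order of replicate number, neuron sums in Graft uninjured were 2806, 1866, 1503, 1359.9 and 6849 CPM. Slc7a10 in the same order was 47.9, 33.8, 56.3, 33.2 and 94.3 CPM. Oligodendrocyte-lineage markers were also apart, at 13581 to 28681 CPM in Graft uninjured against 4897 to 12361 in Graft SCI 14 d and 4080.0 to 13017 in Graft dSCI. Fibroblast and pericyte markers were higher in all Graft dSCI libraries (6545 to 21866) than in all of Graft uninjured (1642 to 3858). The part of these markers in the results was not tested.

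Host astrocytes after SCI had less of all 9. Each was called lower than in healthy hosts, where 22.2% of genes tested were higher and 18.8% lower, and the count stayed at 9 whichever library was left out. The median log2FC of the 9 was -1.61, against 0.02 over all genes. Slc6a11 had a lowest, median and highest level of 2668, 2914 and 3873 CPM in healthy hosts and was 345, 179, 602, 859 and 409 after SCI. It fell by the most, at -2.88 ± 0.27 (SE, edgeR adjusted p = 1.1e-07), with no overlap. Slc1a2 was 9409.7, 10232 and 11615 (lowest, median and highest) in healthy hosts and 2479, 1833, 3735, 5329.7 and 3024 after SCI. It fell by 1.84 on the log2 scale (edgeR adjusted p = 3.3e-07) and did not overlap. Glul was 3611, 3980.1 and 4629.6 in healthy hosts and 1477, 1224, 1526, 1570.2 and 943 after SCI (-1.79 ± 0.11). Log2FC of the rest were -2.62 ± 0.29 for Slc7a10, -1.61 ± 0.16 for Slc6a9, -1.45 ± 0.16 for Slc1a3, -1.24 ± 0.22 for Slc7a11, -1.17 ± 0.16 for Slc38a3 and -0.63 ± 0.11 for Gldc. Ranges overlapped for Gldc and Slc7a11 and for no other member.

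Around them, receptors had 1 higher and 11 lower of 13, with Gabbr2 at -2.82, the metabotropic glutamate receptor Grm3 at -2.39 and the GABA-A subunit Gabra2 at -1.94. Enzymes of glutamate and GABA had 2 higher and 7 lower of 11, among them Abat (-1.55) and Glud1 (-1.43). ATF4 and NRF2 targets went the other way, with 7 higher and 0 lower of 8, such as Hmox1 (heme oxygenase, 1.91) and Asns (1.14). The neutral amino acid carrier Slc7a8 (2.96) and the glutamate transporter Slc1a1 (1.43) were higher. Sums of the astrocyte markers overlapped between hosts, at 24815 to 31736 and 24658 to 36546 CPM. The study reports higher average Gfap in hosts after SCI, but lower Gja1, S100b and Aqp4. Oligodendrocyte-lineage markers summed to 5789 to 12269 CPM in healthy hosts and 23393 to 39187 after SCI. Fibroblast and pericyte markers summed to 47.4 to 98.0 and 454 to 1009, and microglia and macrophage markers to 9.41 to 19.9 and 84.4 to 339. None of these 3 sums overlapped. Their part in the lower levels of the 9 genes was not tested.

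Whether injury acted alike on grafts and on host astrocytes was tested as an interaction of Graft SCI 14 d against Graft uninjured with Host SCI against Host healthy, over the 4 groups together. It called 4 of 9 members, all in the direction of a smaller fall, or a rise, in grafts, where 6.11% of genes tested were higher and 10.7% lower. Slc6a11 differed by 2.36 ± 0.42 (SE, edgeR adjusted p = 0.00012) and Slc1a3 by 2.33 ± 0.28 (edgeR adjusted p = 6e-07). The Slc1a3 effect was -1.45 in hosts and 0.92 in grafts. Slc1a2 differed by 1.58 ± 0.33 and Slc38a3 by 1.17 ± 0.25. Slc7a10 did not pass, and its difference was -0.09 ± 0.61, with effects of -2.62 in hosts and -2.66 in grafts. Slc6a9 (0.86, edgeR adjusted p = 0.0104), Glul, Gldc and Slc7a11 did not pass either. Oligodendrocyte-lineage markers moved in opposite directions with injury. In hosts they summed to 5789 to 12269 CPM when healthy and 23393 to 39187 after SCI. In grafts they summed to 13581 to 28681 in Graft uninjured and 4897 to 12361 in Graft SCI 14 d. Neuron markers were lower in Graft SCI 14 d (246 to 572) than in Graft uninjured (1359.9 to 6849), and overlapped between hosts. The part of these markers in the interaction was not tested.

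**Figure D5:**
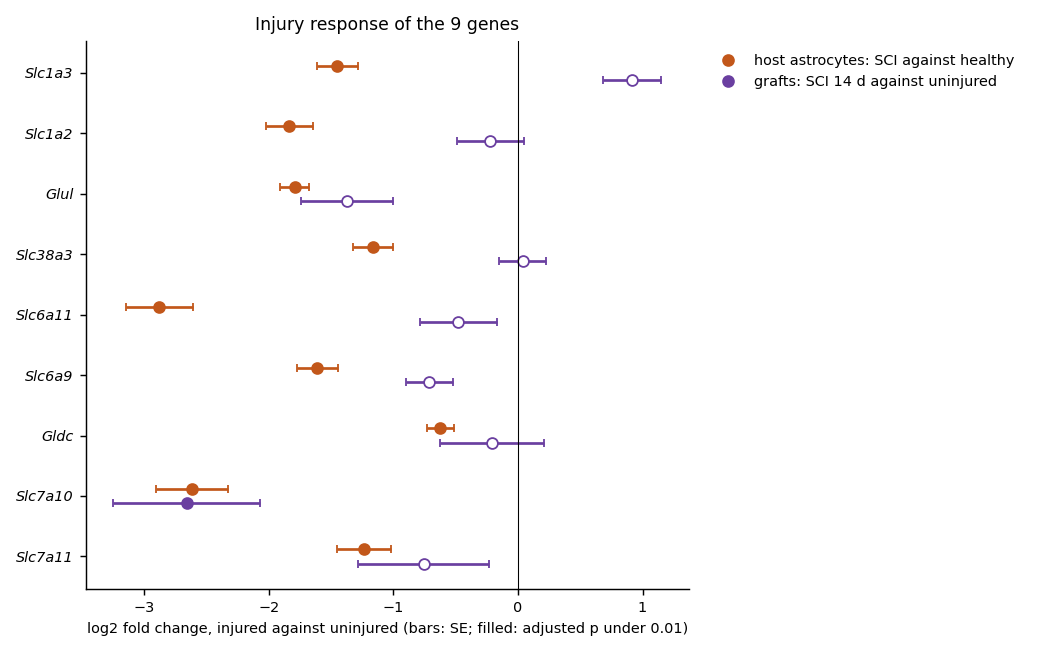
Log2FC with SE of the 9 genes for the injured against the uninjured setting, for hosts (SCI against healthy) and grafts (SCI at 14 days against uninjured), with filled points where the edgeR adjusted p was under 0.01. All 9 host points are filled and lie below 0, while of the graft points Slc7a10 alone is filled, at -2.66, and Slc1a3 lies above 0 at 0.92.

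Last, levels were compared with those of host astrocytes. Graft uninjured was lower than healthy hosts in 7 members and higher in none, where 26.5% of genes tested were higher and 23.3% lower. Slc7a10 (-3.71 ± 0.24), Slc6a11 (-3.58 ± 0.28), Slc1a2 (-3.34 ± 0.20), Slc6a9 (-2.43 ± 0.13) and Glul (-2.07 ± 0.30) were furthest below. Slc7a11 (-0.37) and Gldc (-0.75) did not pass. The sign for Slc7a11 is that of the TMM-scaled fit, and its mean CPM was 58.2 in grafts and 51.2 in hosts. Astrocyte markers were lower in all Graft uninjured libraries (9169 to 16632 CPM) than in all healthy hosts (24815 to 31736). Neuron markers (1359.9 to 6849 against 294 to 399) and oligodendrocyte-lineage markers (13581 to 28681 against 5789 to 12269) were higher in these grafts, with no overlap. In Graft SCI 14 d astrocyte markers summed to 9324 to 21567 CPM, below all Host SCI libraries (24658 to 36546). The part of these markers was not tested. Graft SCI 14 d against Host SCI had 4 lower and 1 higher, where 6.79% of genes tested were higher and 7.84% lower. Slc7a10 (-3.73 ± 0.67), Slc1a2 (-1.69 ± 0.29), Glul (-1.60 ± 0.16) and Slc6a9 (-1.49 ± 0.24) were lower with no overlap. Slc1a3 was the one higher, at 955, 817, 871, 452 and 414 CPM in grafts and 285, 179, 323, 435 and 194.1 in hosts (1.25 ± 0.26, edgeR adjusted p = 0.0037). Its ranges overlapped, and the call was lost in 6 of the 10 fits without 1 library. Cultures in 1% FBS were lower than healthy hosts in 6 members and higher in 1, where 32.3% of genes tested were higher and 34.7% lower. Gldc was higher (1.20 ± 0.08), Slc7a10 was at 0.686, 0.438, 0.435 and 0.519 CPM against a lowest host library of 405 (-10.20 ± 0.16), and Slc1a2 (-5.04 ± 0.13), Slc6a11 (-3.57 ± 0.13) and Glul (-3.52 ± 0.13) were next. Slc1a3 did not pass, at -0.10 in the TMM-scaled fit, where its mean CPM was 812 in 1% FBS and 678 in healthy hosts.

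The genes whose mean log2(CPM + 1) over the 23 groups was most like each member, among 13050 genes, are given as a description. The groups share libraries' depth, cell source and culture, so no test is attached. Slc1a3 was most like Astn1, Cdh2 and Rfx4 (Pearson r from 0.95 to 0.93) and Slc1a2 most like Prxl2a, Wfs1 and Kif1c (0.95). Glul was nearest to Gpc5, Grin2c and Ucp3 (0.93 to 0.90), Slc38a3 to Sall2, Mmgt1 and Cap2 (0.93 to 0.92) and Slc6a11 to Kcnj16 and Omg (0.92). Slc6a9 was nearest to Lsamp and Fam184a (0.91 and 0.90) and then to Slc6a11 (0.87). For Gldc these were Afg3l1, Ubqln1 and Csnk2a1 (0.96), for Slc7a10 Sv2b, Dao and Etnppl (0.99 to 0.98), of which Dao is the oxidase of D-serine and other D-amino acids, and for Slc7a11 Alcam, Lonrf3 and Nrxn2 (0.81 to 0.80). Among the members themselves, the pairs most alike were Slc1a3 and Slc38a3 (0.89), Glul and Slc7a10 (0.88) and Slc6a11 and Slc6a9 (0.87), and the most opposed was Slc1a2 and Gldc (-0.78).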

How the data were processed

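The authors sequenced poly-A RNA recovered by RiboTag on an Illumina NovaSeq, combined the lanes, used Trimmomatic for trimming and HISAT2 for alignment to mm10, and obtained a count per Entrez gene from featureCounts at its default settings. The deposited values are raw counts, 1 table per library, and the authors' own FPKM entered no calculation here. Symbols and coordinates came from RefSeq (GRCm38.p6) for 25275 of 27179 genes, and exon lengths from GENCODE M21 for 21572.

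CPM used each library's total. FPKM, used for the Slc1a3 to Slc1a2 ratio, divided CPM by exon length. Each comparison was fitted on its own groups with edgeR 4.0.16 (R 4.3.3), using filterByExpr with a minimum count of 10, TMM scaling, the quasi-likelihood test and a call at a Benjamini-Hochberg adjusted p below 0.01 over all genes tested, which is the threshold of the study. The 2 interactions were fitted on their 4 groups. Ratios were compared by exact two-sided permutation tests (scipy 1.17.1), adjusted over 8 comparisons at 0.05. Alternatives were DESeq2 1.42.0, its size factors in edgeR, no filter and a stricter one, all groups in 1 fit, a replicate block, other reference groups, other pseudocounts, TMM-scaled levels and leaving out each library. The code was tested on simulated counts.

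Other genes were named by rule, up to 3 of a list per comparison with the largest log2FC among those called at 10 CPM or more in either group, and for each member the 3 genes most like it. Some genes that the rule names are not reported here. Members and lists were chosen with earlier results of these data known. Where labels do not say that libraries of a group come from separate cultures or animals, p-values measure only the spread between these libraries. No 2 libraries were duplicates, and no column of another series was present (0). Counts of single-read and paired libraries differ in kind, since both mates were counted in the latter.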

Additional observations from a re-analysis of the deposited data

Results flagged for a closer look

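Of 207 gene and group combinations of 4 to 10 libraries, 13 held a library set apart from the rest of its group by Dixon's criterion, where chance sets apart about 1 in 20. In NPC DCH, replicate 4 was apart for Slc1a3 (1087 CPM, others 1167 to 1186), Slc1a2 (35.1, others 41.8 to 43.2) and Slc6a9 (112, others 98.9 to 101). SPONT replicate 2 was low in Glul (326 CPM, others 468 to 490) and Gldc (53.1, others 71.9 to 73.6). Graft SCI 5 d replicate 4 was low in Gldc (7.33, others 19.9 to 23.8) and high in Slc7a10 (16.8, others 0.570 to 4.60). That library also had the highest neuron and microglia marker sums of its group, at 1077 and 2150.1 CPM, and their part was not tested. Graft SCI 5 d replicate 5 was high in Slc6a11 (232, others 76.0 to 81.8), and Graft SCI 14 d replicate 5 in Slc7a10 (17.4, others 1.80 to 5.26). Graft dSCI replicate 3 was high in Gldc (23.6, others 0.0957 to 6.33). The remaining 3 were Glul in NPC P15 D3 replicate 4 (446, others 396 to 404), Slc6a11 in ESC replicate 1 (6.13, others 2.60 to 3.13) and Gldc in Host healthy replicate 3 (22.2, others 15.8 to 19.0).

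The response to injury differed between grafts and hosts, by an interaction term, for Slc6a11 (2.36), Slc1a3 (2.33), Slc1a2 (1.58) and Slc38a3 (1.17, log2 scale). The response to CNTF differed with and without 5% FBS for Slc6a9 (1.63) and Slc38a3 (0.84).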

How the results depend on the processing

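Counts of called members, by edgeR unless named, moved by more than 1.5 times in these cases. DESeq2 called 7 in 1% FBS against SPONT (reported count 4), 4 in the CNTF and serum interaction (2), 2 in Graft SCI 14 d against Graft SCI 5 d (0), 4 in Graft SCI 14 d against Graft uninjured (1), 8 in Graft SCI 5 d against NPC DCH (5), 1 in Graft dSCI against Graft SCI 14 d (0) and 4 in IGF-1 against SPONT (2). Over all genes, in the same order, DESeq2 called 2555 (1312 as reported), 4730 (3600), 1775 (811), 1918 (734), 8800 (8017), 1276 (289) and 3619 (979). DESeq2 size factors gave 0 in Graft SCI 14 d against Graft uninjured, where 709 of all genes were called (734). With all groups of an experiment in 1 fit the counts were 7 in 1% FBS against SPONT, 1 in Graft dSCI against Graft uninjured and 6 in IGF-1 against SPONT. That fit called 3019 (1312), 1020 (666) and 4159 (979) of all genes in the same order. In that fit the share of higher calls over all genes was 50.0% (64.1% as reported) for 1% FBS against SPONT, 58.3% (45.0%) for Graft SCI 14 d against Graft uninjured and 44.9% (70.6%) for Graft dSCI against Graft SCI 14 d. NPC DCH 4 h had 4 called against NPC media and 7 against NPC P15 (0 against NPC DCH). Filters on low counts left all counts within 1.5 times.

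Replicate numbers did not pair libraries, since same-numbered deviations had correlations of -0.37 to 0.36 and no comparison had all pairs above 0.1. With a replicate block the count was 3 in Graft SCI 14 d against Host SCI (5), 0 in Graft dSCI against Graft uninjured (2) and 0 in IGF-1 against SPONT (2). Over all genes the block left 1177 (2425), 35 (666) and 1 (979) called, in the same order. The block changed no other count of members by over 1.5 times.

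Leaving out each library gave 2 to 5 calls in 1% FBS against SPONT, 2 to 4 in CNTF + 5% FBS against 5% FBS, 2 to 6 in the CNTF and serum interaction, 0 to 5 in IGF-1 against SPONT, 0 to 1 in Graft SCI 14 d against Graft SCI 5 d (1 without Graft SCI 5 d replicate 5), 0 to 2 in Graft SCI 14 d against Graft uninjured (2 without Graft SCI 14 d replicate 5), 0 to 1 in Graft dSCI against Graft uninjured, 4 to 6 in Graft SCI 5 d against NPC DCH and 6 to 9 in Graft dSCI against NPC DCH. For the log2 ratio of Slc1a3 to Slc1a2 the differences ran from 0.75 to 1.37 (Graft SCI 14 d against Graft uninjured), 0.31 to 0.52 (Host SCI against healthy) and -0.0103 to 0.66 (Graft dSCI against Graft uninjured, the reversed value being without Graft uninjured replicate 5).

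No called member reversed under another test, scaling, filter or left-out library. Other reference groups reversed the log2FC of Glul in Graft SCI 14 d against NPC P15 (0.76), in NPC DCH 4 h against NPC media (0.20) and NPC P15 (0.94), and in SPONT against NPC P30 (-0.47) and NPC P15 D2 (-0.20). They also reversed Slc6a9 in Graft dSCI (-0.16) and NPC DCH 4 h (-0.50) and Slc7a11 in NPC DCH 4 h (-0.80), all against NPC P15. DESeq2 size factors raised the median log2FC of all genes by 0.11 in Graft SCI 5 d and 0.12 in Graft uninjured against NPC DCH. Scaling levels by TMM moved 59 of 208 values by over 1 SD. The causes of these changes were not tested. Setting NPC DCH 4 h against itself was not run. Slc7a10 lay below 2 CPM on average in every culture group, so its log2FC there rest on low levels.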

Other observations

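Other genes of glutamate, GABA and glycine biology changed in grafts as well. Between 5 and 14 days in the lesion, the cytosolic serine hydroxymethyltransferase Shmt1 rose by 2.63 on the log2 scale, while the amino acid carrier Slc7a5 (-1.94) and heme oxygenase Hmox1 (-2.74) fell (edgeR adjusted p below the threshold for each). These 2 groups differ in read type, which cannot be told apart from the day of recovery. Against NPC DCH, the GABA-making enzyme Gad1 was higher in grafts, at 4.48 in Graft SCI 14 d and 6.62 in Graft uninjured, and the AMPA receptor subunit Gria1 at 7.86 in Graft SCI 14 d. In grafts in SCI against uninjured cord, the NMDA receptor subunit Grin1 (-3.0), Gabbr2 (-2.35) and Grm3 (-2.48) were lower. Neuron markers summed to 26.2 to 40.3 CPM in NPC DCH, 246 to 572 in Graft SCI 14 d and 1359.9 to 6849 in Graft uninjured. The part of neuron markers in these graft differences was not tested. With serum and CNTF together, Gria1 was higher than with CNTF alone by 7.49.

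The cystathionine genes Cth and Cbs, which make cysteine within the cell, were lower in hosts after SCI (log2FC -2.27 and -1.89), beside the cystine exchanger Slc7a11. In SPONT against NPC P15, Cth changed by -7.94 while Slc7a11 rose by 1.72.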
